A study of Rattus norvegicus with 43 samples.

Results

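Genes of integrins and of the focal adhesion proteins that tie them to actin were followed from intact rat liver through isolation and 48 h of culture of rat primary hepatocytes (RPH). The set has 39 genes, taken by name, and for each, the brightest probe set that lists no other gene was used. Of the 39 genes, 38 had such a probe set (72 probe sets in all, of 31099 on the array), and 35 passed a filter on low signal and were tested among 10643 genes. Itga2, the alpha chain of a collagen receptor, was not analysed here. Itgb6, Src and Enah did not pass the filter, and their signals are given with no test.

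Each of 3 male Sprague Dawley rats, of an age that the labels do not give, provided 1 sample to each of 5 groups, all labelled untreated, that is, without a test compound. The paper states that the animals received pentobarbital by injection before they were killed. A lobe tied off before perfusion is the liver group, the pellet of isolated cells is the 0 h group, and cells plated on collagen-coated dishes and harvested after 4, 24 and 48 h are the other three groups. The medium held insulin, transferrin and dexamethasone, and serum was present up to 4 h and absent afterwards, so time in culture and the change of medium cannot be told apart. RNA was read on 43 Affymetrix arrays, and the values are MAS5 signals, in which the authors scaled each array to the same trimmed mean. Differences are given as log2 fold changes, so that 1 stands for a doubled signal, with the standard error (SE) from limma and n = 3 rats per group. A gene is said to have risen or fallen where its Benjamini-Hochberg adjusted p over all 10643 genes was under 0.05.

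Integrins are receptors made of an alpha and a beta chain that bind matrix proteins such as collagen, fibronectin and laminin outside the cell. Inside, the beta chain binds talin and kindlin, and these recruit vinculin, the complex of integrin-linked kinase, PINCH and parvin, focal adhesion kinase, paxillin and zyxin, which together hold actin filaments bundled by alpha-actinin and filamin. Hepatocytes in liver rest on a sparse matrix with little basement membrane, while cells spread on a stiff coated dish build focal adhesions and stress fibers.

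The array does not separate cell types, and in bulk RNA fewer cells of a type and less RNA per cell cannot be told apart. The hepatocyte markers (13 of 15 measured) summed to between 351114 and 370226 in liver and to between 207709 and 233667 at 48 h, which is 61.4% of the liver mean. Single markers varied, with 8 of the 13 falling and 0 rising at 48 h vs. 0 h, where 17.5% of all genes fell and 26.6% rose. Cyp2e1 fell the most, with mean signals of 163 vs. 30920, a log2 difference of -7.57 (SE 0.32, adjusted p = 2.47e-09), and Apob had -1.09 (adjusted p = 5.79e-05). The endothelial markers (13 of 15) were at 69.2% of liver at 0 h and 5.35% at 48 h, and the markers of Kupffer cells and macrophages (12 of 14) at 60.2% and 14.4%. The markers of stellate cells and fibroblasts (12 of 14) were at 50.9% at 0 h and 22.0% at 48 h, and the leukocyte markers (4 of 14) at 52.2% and 16.6%. The stellate cell sum was at 16.1% of the liver mean at 24 h. Of its 12 genes 6 fell and 2 rose at 48 h vs. 0 h, and the risers included Acta2, the actin of contractile cells, with mean signals of 830.3 vs. 119.9, a log2 difference of 2.79 (SE 0.37, adjusted p = 4.65e-05). The largest fall was that of Lrat, with 23.5 vs. 471, a log2 difference of -4.33 (SE 0.77, adjusted p = 0.000487). The platelet and red cell markers (5 of 9) were at 2.91% and 0.92%, and the liver of rat 1 had a sum of 8360 against 58034 and 59618 in the other livers. Among them, the red cell globins Hbb and Hba-a3 had mean signals of 20335 and 7289 in liver and of 284 and 169 at 0 h. The platelet chain Itga2b had 361 at 0 h and 172 at 48 h. The bile duct markers (3 of 9) were at 99.6% at 0 h and 249% at 48 h, a sum made mostly of Epcam, and went both ways at 48 h vs. 0 h, with mean signals of Epcam at 2409 vs. 896, of Sctr at 60.4 vs. 18.2 and of Krt19 at 26.8 vs. 89.5 (log2 difference -1.74, adjusted p = 0.0120). At 48 h the endothelial markers Stab2 and Kdr had mean signals of 41.8 and 42.5, below the median of every array. The beta-actin 3' to 5' ratio, a measure of RNA quality, had a mean of 4.60 in liver (SD 2.05, n = 3), 3.90 at 0 h (SD 0.65) and 2.22 at 48 h (SD 0.25). Its means at 4 h and 24 h were 2.97 and 2.35. Livers ranged from 3.21 to 6.96 (rat 1) and 48 h samples from 1.95 to 2.46, without overlap. The part of these cell types in the results was not tested.

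**Figure D1:**
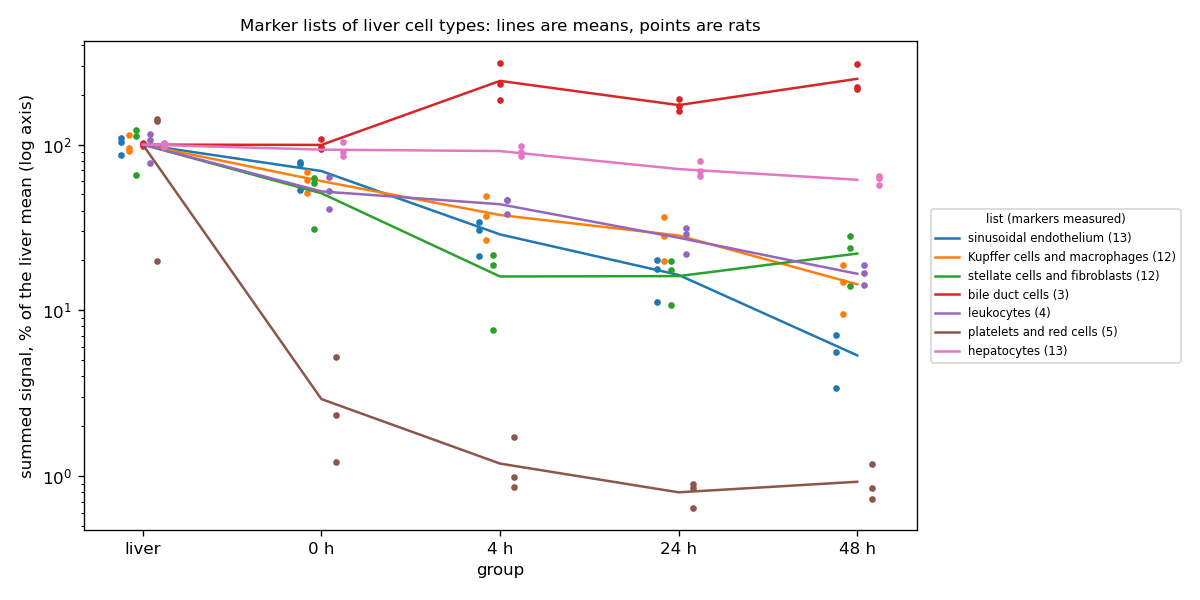
Summed signal of marker lists for liver cell types, as a percentage of the liver mean on a log axis, by group. Lines join group means and points are single rats. Endothelial markers end at 5.35% of liver and hepatocyte markers at 61.4%, while the 3 bile duct markers end at 249%.

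At 0 h vs. liver no member passed the test in either direction, beside 0.141% of all genes called up and 0.432% down. At an unadjusted p under 0.05 in limma there were 10 of 35 members. Here and below, shares of all genes are of genes called at an adjusted p under 0.05. The share of all genes at an unadjusted p is not given, so the unadjusted counts of members cannot be set against these shares. Of the 35 members, 5 had a higher and 30 a lower mean at 0 h, and their median log2 fold change was -0.37 against -0.075 over all genes. Array medians were higher in liver (126.6) than at 0 h (96.8), and this split depends on the scaling. With arrays centred on their medians, the median over all genes was 0.060, and Itgb1, Vcl, Ilk and Ptk2, among others, had a higher mean at 0 h. The lowest was Cav1, which encodes the coat protein of caveolae, with signals of 169.6, 232 and 219.8 in liver and 109, 29.3 and 63.2 at 0 h in rats 1, 2 and 3. The groups did not overlap, and the log2 fold change was -1.81 (SE 0.47, adjusted p = 0.124). Flna, which encodes filamin A, a crosslinker of actin, had signals of 446, 641 and 638 in liver and 338, 163 and 235 at 0 h, again without overlap. Its log2 fold change was -1.27 (SE 0.29, adjusted p = 0.0785), and after adding 32 to all signals (the offset used from here on) it was -1.16 (adjusted p = 0.0435), which passes.

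Between 4 h and 0 h, 9 members rose and 1 fell, beside 16.3% of all genes up and 22.7% down. Between 24 h and 4 h, 17 members rose and none fell in limma (19 of 35 had an unadjusted p under 0.05), beside 26.3% of all genes up and 13.5% down. At 48 h vs. 24 h only Itgb4 and Cd151 rose and none fell (8 of 35 at an unadjusted p under 0.05), beside 2.51% up and 1.78% down. Over the whole culture, 48 h vs. 0 h, 24 members rose, 1 fell and 10 did not pass, beside 26.6% up and 17.5% down, and the median was 1.34 against 0.12 over all genes. At 48 h vs. liver, 21 rose, 3 fell and 11 did not pass, beside 25.4% up and 22.6% down, with a median of 0.81 against 0.041 over all genes. Of the calls made, 7 of 10 at 4 h vs. 0 h, 9 of 17 at 24 h vs. 4 h, 0 of 2 at 48 h vs. 24 h, 19 of 25 at 48 h vs. 0 h and 16 of 24 at 48 h vs. liver held whichever rat or sample was left out. The comparisons from 0 h share the 0 h samples, and those with 48 h share the 48 h samples. When arrays were centred on their medians, the share of all genes called became 17.8% up and 19.6% down at 24 h vs. 4 h and 17.6% up and 24.8% down at 48 h vs. 0 h, while the members went 14 up and 1 down, and 21 up and 1 down. With the actin ratio as a covariate, 11 members rose at 48 h vs. liver (the calls of Itga5, Itgav, Cav2, Vcl, Zyx, Pxn, Pdlim7, Actn4, Vasp, Msn and Ezr were lost), and 7 of the 25 calls at 48 h vs. 0 h were lost (Itga3, Itgb3, Itgb4, Cav2, Pdlim7, Lpp and Actn4). Also lost were the calls of Cd44 and Vasp at 4 h vs. 0 h, of Itgb1, Tes and Lpp at 24 h vs. 4 h and of Cd151 at 48 h vs. 24 h. The mean ratio fell from each group to the next, so RNA quality and group cannot be told apart in these fits.

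**Figure D2:**
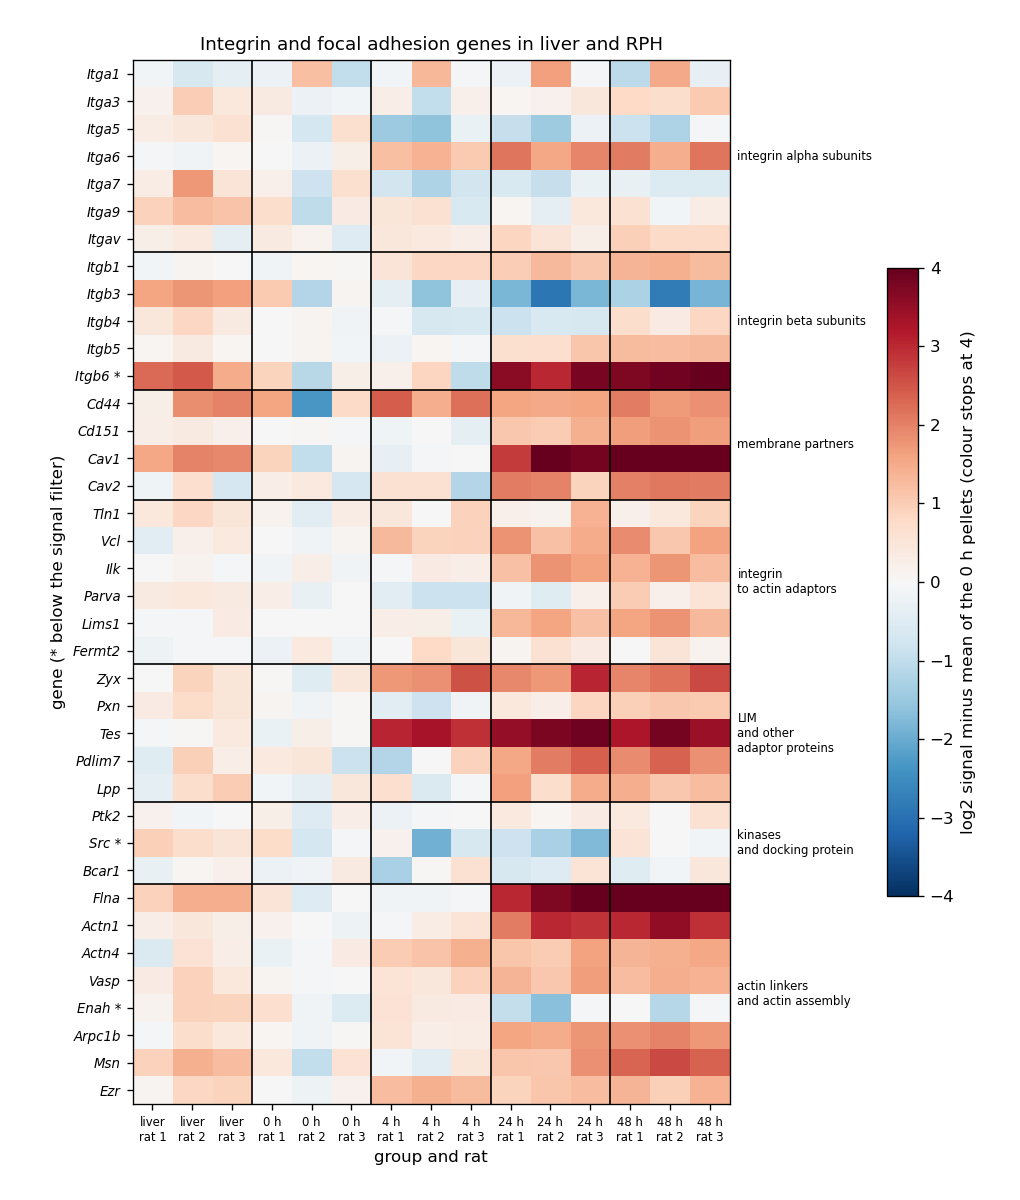
Log2 signal of the 38 members measured in every sample (columns, grouped by liver and time in culture), minus the mean of the 0 h pellets, with rows ordered by role and 3 genes below the signal filter starred. Tes and Zyx are high from 4 h, Cav1, Flna and Actn1 from 24 h, and Itgb3 is low from 24 h.

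Among the integrin alpha chains, Itga6 rose and Itga5 and Itga7 ended below liver. Of 7 tested, 1 rose at 4 h vs. 0 h, 1 at 24 h vs. 4 h and none at 48 h vs. 24 h, and 3 (Itga3, Itga6 and Itgav) rose at 48 h vs. 0 h. Of all genes, 16.3%, 26.3%, 2.51% and 26.6% rose in these comparisons, in that order. Itga6, the alpha chain of laminin receptors, had signals of 1002, 938 and 1079 in liver, 1020.4, 874 and 1221 at 0 h, 2381, 2696 and 2121 at 4 h, 4493, 3026 and 4003 at 24 h and 4324, 2796 and 4539 at 48 h in rats 1, 2 and 3. The 3 rats at 4 h lay above those at 0 h, and those at 24 h above those at 4 h. The log2 fold change was 1.21 (SE 0.21, adjusted p = 0.000575) at 4 h vs. 0 h, 0.67 (SE 0.21, adjusted p = 0.0223) at 24 h vs. 4 h and 0.0040 at 48 h vs. 24 h (95% interval -0.45 to 0.46). It reached 1.89 (SE 0.21, adjusted p = 1.01e-05) at 48 h vs. 0 h and 1.92 (SE 0.21, adjusted p = 8.39e-06) at 48 h vs. liver. Leaving out rat 1 or rat 3 removed the call at 24 h vs. 4 h, with 0.54 (adjusted p = 0.209) and 0.54 (adjusted p = 0.188). Itga6 did not differ detectably between 0 h and liver (0.034, SE 0.21, adjusted p = 0.963).

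Itga5, the alpha chain of the fibronectin receptor, had signals of 552, 612 and 683 in liver, 464, 274 and 691 at 0 h, 163, 146 and 369 at 4 h, 237, 166 and 379 at 24 h and 247, 191 and 419.7 at 48 h. The 48 h values lay below all livers, and rat 3 was the highest at every culture time. The log2 fold change was -1.11 (SE 0.43, adjusted p = 0.0539) at 4 h vs. 0 h, which did not pass, and -1.18 (SE 0.43, adjusted p = 0.0348) at 48 h vs. liver, which did. With the rat as a block, the adjusted p was 0.00153 at 4 h vs. 0 h and 0.0154 at 48 h vs. 0 h, so that both would pass, with log2 fold changes of -1.11 and -0.72 (adjusted p without the block 0.190 for the second). The call at 48 h vs. liver was lost in 7 of the settings that leave out a rat or a sample, and without rat 1 or rat 2 the value was -1.19 (adjusted p = 0.175) and -0.93 (adjusted p = 0.148). Between 0 h and liver its log2 fold change was -0.46 (SE 0.43, adjusted p = 0.685).

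Itga1, the alpha chain of a collagen receptor, had signals of 382, 264 and 316 in liver, 353, 956 and 207 at 0 h, 379, 1026 and 399 at 4 h, 347, 1271 and 386 at 24 h and 199.6, 1179 and 331 at 48 h. Rat 2 was the lowest in liver and above the others in every sample after isolation, at 956 to 1271 against 199.6 to 399 in rats 1 and 3. No comparison of Itga1 passed, with log2 fold changes of 0.38 (SE 0.70, adjusted p = 0.703) at 4 h vs. 0 h, 0.045 (SE 0.70, adjusted p = 0.969) at 24 h vs. 4 h and 0.053 (SE 0.70, adjusted p = 0.959) at 48 h vs. 0 h. The interval at 48 h vs. 0 h ran from -1.46 to 1.57, so a change of 1 in either direction was within it.

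Itga7, a laminin receptor chain known from muscle, had signals of 345, 939 and 406 in liver, 328, 158 and 436 at 0 h, 171, 121 and 169.7 at 4 h, 187, 148 and 236 at 24 h and 229, 193 and 193 at 48 h. The liver of rat 2 was more than 2 times as high as the other livers, and all 48 h values lay below all livers. Its log2 fold change at 48 h vs. liver was -1.32 (SE 0.39, adjusted p = 0.0131), without the liver of rat 2 it was -0.88 (adjusted p = 0.0659), without rat 2 altogether -0.84 (adjusted p = 0.0208) and without rat 3 -1.44 (adjusted p = 0.0555). Itga9, a chain that binds tenascin and osteopontin, ranged from 221 to 275 in liver and from 108 to 175 at 48 h and did not pass (-0.84, SE 0.41, adjusted p = 0.107). Itgav, the alpha chain of vitronectin receptors, ranged from 655 to 1199 at 0 h and from 1562 to 1786 at 48 h, and rose by 0.82 (SE 0.24, adjusted p = 0.0146). Without the 0 h sample of rat 3 this was 0.57 (adjusted p = 0.0687), and without rat 2 it was 0.91 (adjusted p = 0.0847). Itga3, an epithelial laminin receptor chain, ranged from 126 to 187 at 0 h and from 240.0 to 304 at 48 h (0.85, SE 0.31, adjusted p = 0.0382), and 7 of the settings that leave out a rat or sample removed its call, among them leaving out rat 1 (1.05, adjusted p = 0.0651) and rat 3 (0.68, adjusted p = 0.253).

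The beta chains moved in both directions: Itgb1, Itgb4 and Itgb5 rose at 48 h vs. 0 h and Itgb3 fell. With the actin ratio as a covariate, the calls of Itgb3 and Itgb4 were lost. Itgb1, the beta chain shared by most collagen, fibronectin and laminin receptors, had signals of 3362, 3959 and 3663 in liver, 3332, 3838 and 3801 at 0 h, 5205, 6414 and 6507 at 4 h, 7224, 8985 and 7755 at 24 h and 9366, 9685 and 8752 at 48 h. Each culture time to 24 h lay above the one before in all rats. The log2 fold change was 0.72 (SE 0.14, adjusted p = 0.00140) at 4 h vs. 0 h, 0.40 (SE 0.14, adjusted p = 0.0355) at 24 h vs. 4 h and 1.34 (SE 0.14, adjusted p = 5.91e-06) at 48 h vs. 0 h. Against liver it was 1.34 (SE 0.14, adjusted p = 5.95e-06) at 48 h, and the 0 h pellets did not differ detectably from liver (95% interval -0.31 to 0.30). Leaving out any 1 rat removed the call at 24 h vs. 4 h, with values of 0.36 to 0.48.

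Itgb3, the beta chain of a vitronectin receptor of endothelium and macrophages and of the platelet fibrinogen receptor, had signals of 709.6, 813 and 741 in liver, 498, 106 and 259 at 0 h, 185, 77.7 and 192 at 4 h, 67.3, 32.4 and 67.7 at 24 h and 99.0, 34.7 and 65.2 at 48 h. Every rat at 48 h lay below every rat at 0 h, and every rat at 0 h below every liver. This came to -1.98 (SE 0.54, adjusted p = 0.00911) at 48 h vs. 0 h and -3.63 (SE 0.54, adjusted p = 0.000110) at 48 h vs. liver. At 24 h vs. 4 h it was -1.41 (SE 0.54, adjusted p = 0.0520), and 0.00547 was the adjusted p with the rat as a block. Without rat 3 the change at 48 h vs. 0 h was -1.97 (adjusted p = 0.0970). The endothelial marker sums lay between 16889 and 21499 in liver, 10393 and 15253 at 0 h and 666 and 1379 at 48 h, and the Kupffer cell sums between 26341 and 32869, 14796 and 19669, and 2753 and 5386. Their part in the fall of Itgb3 was not tested.

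Itgb4, the partner of alpha6 in epithelial laminin receptors, had signals of 218, 281 and 205 in liver, 161, 172 and 146 at 0 h, 153, 101 and 104 at 4 h, 86.9, 104 and 103 at 24 h and 259, 199 and 282 at 48 h. The 24 h values lay below those at 48 h in all rats, and its log2 fold change was 1.32 (SE 0.20, adjusted p = 0.00223) at 48 h vs. 24 h, 0.62 (SE 0.20, adjusted p = 0.0207) at 48 h vs. 0 h and 0.070 (SE 0.20, adjusted p = 0.790) at 48 h vs. liver. Without rat 1 or rat 3 the late rise was 1.20 (adjusted p = 0.0916) and 1.25 (adjusted p = 0.0806), and the 48 h vs. 0 h value 0.58 (adjusted p = 0.0958) and 0.45 (adjusted p = 0.222). Itgb5, a partner of the alphav chain, ranged from 1001 to 1169 at 0 h and from 2551 to 2638 at 48 h, and rose at 24 h vs. 4 h (0.86, SE 0.16, adjusted p = 0.000722) and at 48 h vs. 0 h (1.26, SE 0.16, adjusted p = 2.34e-05). Itgb6, an epithelial partner of the alphav chain that was below the filter, had signals of 24.7, 28.4 and 14.6 in liver, 9.54, 2.40 and 6.05 at 0 h, 5.91, 9.36 and 2.54 at 4 h, 63.0, 42.0 and 71.9 at 24 h and 68.9, 75.8 and 83.3 at 48 h. All values at 24 h and 48 h lay above all earlier ones, liver included.

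**Figure D3:**
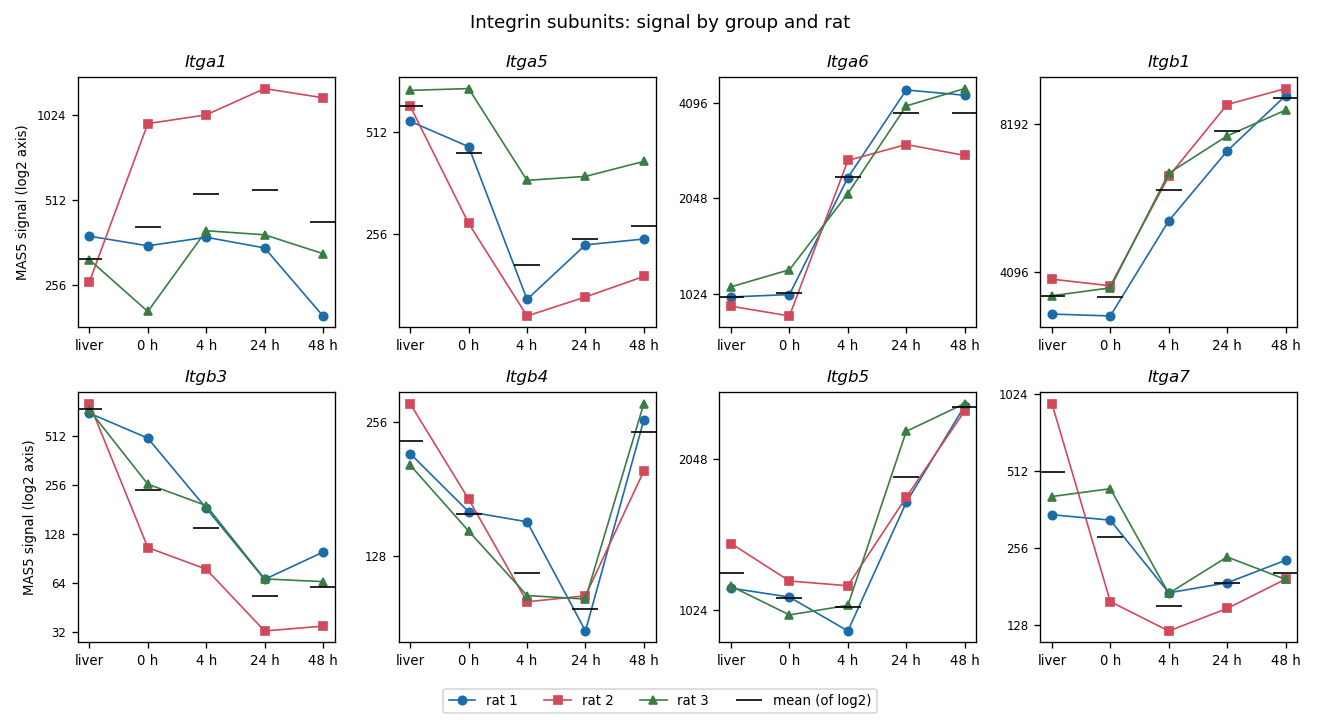
MAS5 signals of 8 integrin chains on a log2 axis, with 1 line per rat and the mean of log2 values as a bar. Itgb1 and Itga6 step up at 4 h and 24 h, Itgb5 at 24 h, Itgb3 is lower in culture than in liver, and Itga1 separates rat 2 from the others after isolation.

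Of the membrane partners, Cav1 and Cav2 rose at 24 h vs. 4 h, Cd151 rose at 24 h and again at 48 h, and Cd44 rose at 4 h vs. 0 h. Cav1 had signals of 169.6, 232 and 219.8 in liver, 109, 29.3 and 63.2 at 0 h, 46.6, 56.1 and 59.9 at 4 h, 410.0, 1230.5 and 841 at 24 h and 939, 2389 and 1639 at 48 h. The 24 h and 48 h values lay above all earlier ones, and the log2 fold change was 3.80 (SE 0.47, adjusted p = 4.47e-05) at 24 h vs. 4 h, 4.72 (SE 0.47, adjusted p = 3.76e-06) at 48 h vs. 0 h and 2.91 (SE 0.47, adjusted p = 0.000232) at 48 h vs. liver. The 0 h sample of rat 2 was under 32, and with the offset the 48 h vs. 0 h value was 4.03. Cav2, a second caveolin, ranged from 357 to 752 at 0 h and from 2277 to 2436 at 48 h (2.05, SE 0.49, adjusted p = 0.00411). Its rise at 24 h vs. 4 h was 1.62 (SE 0.49, adjusted p = 0.0180), and without the 4 h sample of rat 3 it was 1.03 (adjusted p = 0.0812), without rat 1 1.72 (adjusted p = 0.0984) and without rat 2 1.75 (adjusted p = 0.0642).

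Cd151, a tetraspanin that binds laminin receptors, had signals of 2652, 2837 and 2544 in liver, 2204, 2274 and 2114 at 0 h, 1942, 2216 and 1727 at 4 h, 4622, 4401 and 5929 at 24 h and 7004, 7616 and 7072 at 48 h. The 24 h and 48 h values lay above all earlier ones. Its log2 fold change was 1.34 (SE 0.14, adjusted p = 1.47e-05) at 24 h vs. 4 h, 0.55 (SE 0.14, adjusted p = 0.0492) at 48 h vs. 24 h and 1.72 (SE 0.14, adjusted p = 8.19e-07) at 48 h vs. 0 h. Leaving out any 1 rat removed the call at 48 h vs. 24 h, where values lay between 0.43 and 0.70. Cd44, a hyaluronan receptor, had signals of 31.7, 97.0 and 107 in liver, 80.2, 5.29 and 45.5 at 0 h, 142, 74.1 and 124 at 4 h, 79.3, 77.4 and 79.8 at 24 h and 110.2, 88.1 and 94.9 at 48 h. The 0 h sample of rat 2, at 5.29, was the lowest of all, and the 4 h value was 2.03 (SE 0.75, adjusted p = 0.0469) vs. 0 h, or 1.07 with the offset. The groups overlapped, and the call was lost in 6 of the settings that leave out a rat or sample. Without the 0 h sample of rat 2 it was 0.86 (adjusted p = 0.165), and without rat 3 it was 2.32 (adjusted p = 0.162). Against liver it was 0.50 (SE 0.75, adjusted p = 0.609) at 48 h.

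The adaptors that link integrins to actin went in 3 ways. Vcl rose from 4 h, Ilk and Lims1 rose at 24 h, and Tln1, Parva and Fermt2 did not pass at 48 h vs. 0 h. Vcl, which encodes vinculin, had signals of 863, 1338 and 1530.3 in liver, 1175, 1059 and 1256 at 0 h, 2878, 2161 and 2203 at 4 h, 4054, 2627 and 3249.7 at 24 h and 4341, 2441 and 3552 at 48 h. The 4 h values lay above all 0 h values, and the log2 fold change was 1.04 (SE 0.25, adjusted p = 0.00552) at 4 h vs. 0 h, 0.45 (SE 0.25, adjusted p = 0.182) at 24 h vs. 4 h and 1.53 (SE 0.25, adjusted p = 0.000290) at 48 h vs. 0 h. It was 1.47 (SE 0.25, adjusted p = 0.000379) against liver at 48 h, and 0 h and liver overlapped (-0.060, SE 0.25, adjusted p = 0.946).

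Ilk, which encodes integrin-linked kinase, had signals of 2718, 2994 and 2556 in liver, 2494, 3268 and 2489 at 0 h, 2661, 3388 and 3246 at 4 h, 6168, 9475 and 8266 at 24 h and 7102, 9292 and 6487 at 48 h. The 0 h and 4 h values overlapped, with 0.18 (SE 0.20, adjusted p = 0.508), and all 24 h values lay above all 4 h values, with 1.35 (SE 0.20, adjusted p = 0.000148). The log2 fold change was 1.47 (SE 0.20, adjusted p = 4.66e-05) at 48 h vs. 0 h, 1.45 (SE 0.20, adjusted p = 4.88e-05) at 48 h vs. liver and -0.012 (SE 0.20, adjusted p = 0.987) at 0 h vs. liver. Lims1, which encodes PINCH1, a partner of integrin-linked kinase, ranged from 1534 to 1575 at 0 h and from 3823 to 5368 at 48 h (1.56, SE 0.19, adjusted p = 1.95e-05). Of Lims1's gain, 1.28 (SE 0.19, adjusted p = 0.000164) came at 24 h vs. 4 h.

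Parva, which encodes alpha-parvin, the third member of that complex, had signals of 908, 947 and 908 in liver, 847, 582 and 723 at 0 h, 532, 392 and 394 at 4 h, 645, 512 and 813 at 24 h and 1423, 815 and 1025 at 48 h. The 4 h values lay below all 0 h values, and it fell at 4 h vs. 0 h (-0.71, SE 0.23, adjusted p = 0.0263), the only member to do so without the rat as a block, since with it Itga5 passed too (-1.11, adjusted p = 0.00153). Without rat 1 or rat 3 the call was lost (-0.72, adjusted p = 0.0711, and -0.62, adjusted p = 0.192). It then stood at 0.57 (SE 0.23, adjusted p = 0.0632) at 24 h vs. 4 h, 0.72 (SE 0.23, adjusted p = 0.111) at 48 h vs. 24 h and 0.58 (SE 0.23, adjusted p = 0.0546) at 48 h vs. 0 h. With the rat as a block these 3 passed, with adjusted p of 0.0225, 0.0346 and 0.0191. Fermt2, which encodes kindlin-2, ranged from 3423 to 5356 at 0 h and from 4069 to 7099 at 4 h (0.43, SE 0.23, adjusted p = 0.159), and with the rat as a block its adjusted p was 0.0238.

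Tln1, which encodes talin 1, had signals of 718, 944 and 741 in liver, 588, 389 and 654 at 0 h, 729, 542 and 1001 at 4 h, 612, 583 and 1382 at 24 h and 613, 709 and 975 at 48 h. The groups overlapped in every comparison except 0 h vs. liver, and no comparison passed. Its log2 fold change was -0.58 (SE 0.33, adjusted p = 0.483) at 0 h vs. liver, 0.47 (SE 0.33, adjusted p = 0.292) at 4 h vs. 0 h, 0.50 (SE 0.33, adjusted p = 0.243) at 48 h vs. 0 h and -0.081 (SE 0.33, adjusted p = 0.858) at 48 h vs. liver. The 95% interval at 48 h vs. 0 h was -0.22 to 1.22.

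All 5 LIM and other adaptor proteins rose at 48 h vs. 0 h, with 2 of them rising by 4 h. Of all genes, 26.6% rose at 48 h vs. 0 h and 16.3% at 4 h vs. 0 h. The calls of Pdlim7 and Lpp were lost with the actin ratio as a covariate. Tes, which encodes testin, a LIM protein of focal adhesions, had signals of 357, 395 and 499 in liver, 313, 449 and 392 at 0 h, 3164, 3706 and 2882 at 4 h, 4365, 5154 and 5677 at 24 h and 3586, 5429 and 4167 at 48 h. All values at 4, 24 and 48 h lay above those of liver and 0 h, and the log2 fold change was 3.09 (SE 0.20, adjusted p = 2.88e-07) at 4 h vs. 0 h, 0.64 (SE 0.20, adjusted p = 0.0215) at 24 h vs. 4 h, 3.51 (SE 0.20, adjusted p = 3.40e-08) at 48 h vs. 0 h and 3.39 (SE 0.20, adjusted p = 4.56e-08) at 48 h vs. liver. The call at 24 h vs. 4 h was lost without rat 2, at 0.72 (adjusted p = 0.0542), and without rat 3, at 0.47 (adjusted p = 0.240). Zyx, which encodes zyxin, a LIM protein that binds alpha-actinin and VASP, had signals of 501, 918 and 687 in liver, 513, 350.0 and 675 at 0 h, 1657, 1758 and 2886 at 4 h, 1888, 1655 and 4068 at 24 h and 1936, 2253 and 3062 at 48 h. All values at 4 h and later lay above those of liver and 0 h. Its log2 fold change was 2.04 (SE 0.36, adjusted p = 0.000740) at 4 h vs. 0 h, 0.20 (SE 0.36, adjusted p = 0.703) at 24 h vs. 4 h and 2.26 (SE 0.36, adjusted p = 0.000234) at 48 h vs. 0 h.

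Pdlim7, a PDZ and LIM protein on actin, had signals of 78.9, 214 and 132 in liver, 142, 154 and 59.9 at 0 h, 48.8, 111 and 207 at 4 h, 318, 456 and 579 at 24 h and 407, 556 and 388 at 48 h. The 24 h values lay above all 4 h values (2.07, SE 0.51, adjusted p = 0.00543), and at 48 h vs. 0 h the value was 2.02 (SE 0.51, adjusted p = 0.00560). Without rat 2 these were 2.09 (adjusted p = 0.0530) and 2.11 (adjusted p = 0.0505). Pxn, which encodes paxillin, a docking protein at focal adhesions, ranged from 591 to 701 at 0 h, from 367 to 594 at 4 h and from 1257 to 1388 at 48 h. It rose at 24 h vs. 4 h (0.98, SE 0.20, adjusted p = 0.00163) and at 48 h vs. 0 h (1.03, SE 0.20, adjusted p = 0.000927). Lpp, a zyxin relative, ranged from 68.6 to 119 at 0 h and from 185 to 240.3 at 48 h (1.26, SE 0.38, adjusted p = 0.0167). Leaving out rat 2 or rat 3 removed this call of Lpp, with 1.17 (adjusted p = 0.0790) and 1.50 (adjusted p = 0.0546).

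Of the kinases and docking proteins, neither tested gene passed in any comparison. Ptk2, which encodes focal adhesion kinase, had signals of 1048, 863 and 949 in liver, 1098, 656 and 1135 at 0 h, 797, 889 and 940.2 at 4 h, 1226, 998 and 1177 at 24 h and 1216, 950.2 and 1412 at 48 h. The groups overlapped at 48 h vs. 0 h (0.33, SE 0.21, adjusted p = 0.222, 95% interval -0.12 to 0.79) and at 48 h vs. liver (0.31, SE 0.21, adjusted p = 0.243). At 24 h vs. 4 h they did not overlap (0.37, SE 0.21, adjusted p = 0.184). Bcar1, which encodes the docking protein p130Cas, ranged from 582 to 834 in liver and from 512 to 988 at 48 h (-0.047, SE 0.44, adjusted p = 0.939). Src, which encodes a kinase that acts with focal adhesion kinase and was below the filter, had signals of 84.9, 70.2 and 61.9 in liver, 73.1, 27.0 and 41.7 at 0 h, 48.9, 11.5 and 27.9 at 4 h, 24.6, 17.7 and 12.8 at 24 h and 63.8, 42.7 and 40.5 at 48 h. Every 24 h value lay below every liver value.

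All 7 tested actin linkers and assembly factors rose at 48 h vs. 0 h and at 48 h vs. liver, beside 26.6% and 25.4% of all genes. With the actin ratio as a covariate, Actn4 lost both calls, and Vasp, Msn and Ezr lost the one against liver. Without rat 1, Vasp and Msn stood at 0.74 (adjusted p = 0.0638) and 1.17 (adjusted p = 0.106) against liver. Flna had signals of 446, 641 and 638 in liver, 338, 163 and 235 at 0 h, 212, 212 and 224 at 4 h, 1899, 3156 and 3977 at 24 h and 3935, 5584 and 4355 at 48 h. The 4 h and 0 h values overlapped (-0.12, SE 0.29, adjusted p = 0.778), all 24 h values lay above all 4 h values (3.74, SE 0.29, adjusted p = 1.19e-06), and the value was 4.28 (SE 0.29, adjusted p = 1.37e-07) at 48 h vs. 0 h and 3.01 (SE 0.29, adjusted p = 2.77e-06) at 48 h vs. liver. Actn1, which encodes an actin bundling alpha-actinin, had signals of 806, 927 and 785 in liver, 763, 687 and 580.2 at 0 h, 644, 819 and 988 at 4 h, 2805, 5443 and 4973 at 24 h and 5424, 7917 and 5099.7 at 48 h. The 24 h and 48 h values lay above all earlier ones. Its log2 fold change was 0.26 (SE 0.25, adjusted p = 0.454) at 4 h vs. 0 h, 2.40 (SE 0.25, adjusted p = 1.35e-05) at 24 h vs. 4 h, 3.16 (SE 0.25, adjusted p = 5.94e-07) at 48 h vs. 0 h and 2.85 (SE 0.25, adjusted p = 1.46e-06) at 48 h vs. liver.

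Other linkers rose at 4 h. Actn4, a second alpha-actinin, ranged from 1846 to 2755 at 0 h, from 4434 to 5958 at 4 h and from 5598 to 6497 at 48 h, with 1.20 (SE 0.27, adjusted p = 0.00346) at 4 h vs. 0 h and 0.042 at 24 h vs. 4 h (adjusted p = 0.920). Ezr, which encodes ezrin, a linker of actin to the plasma membrane, had signals of 198, 324 and 342 in liver, 185, 159.9 and 206 at 0 h, 425, 488 and 438 at 4 h, 337, 391 and 429 at 24 h and 467, 351 and 483 at 48 h. All its 4 h values lay above all 0 h and liver values (1.30, SE 0.21, adjusted p = 0.000340). Against liver, Ezr at 48 h stood at 0.62 (SE 0.21, adjusted p = 0.0263), and without the liver of rat 1 at 0.37 (adjusted p = 0.122). Vasp, which lengthens actin filaments, rose at 4 h (0.64, SE 0.20, adjusted p = 0.0206) and at 24 h vs. 4 h (0.73, SE 0.20, adjusted p = 0.00958). Without rat 1 these were 0.74 (adjusted p = 0.0844) and 0.69 (adjusted p = 0.0943), and without rat 3 0.48 (adjusted p = 0.172) and 0.71 (adjusted p = 0.0640).

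Msn, which encodes moesin, a relative of ezrin, ranged from 234 to 683 at 0 h, from 973 to 1642 at 24 h and from 2293 to 2863 at 48 h (2.43, SE 0.37, adjusted p = 0.000131). Arpc1b, a subunit of the actin nucleating Arp2/3 complex, ranged from 672 to 778 at 0 h and from 2473 to 2939.7 at 48 h (1.86, SE 0.18, adjusted p = 3.19e-06). Enah, a relative of Vasp that was below the filter, had signals of 36.7, 63.3 and 61.5 in liver, 52.6, 30.3 and 22.7 at 0 h, 49.7, 42.4 and 41.7 at 4 h, 17.1, 10.3 and 31.3 at 24 h and 33.1, 15.1 and 32.02 at 48 h. Its 24 h values lay below its 4 h values in all rats.

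**Figure D4:**
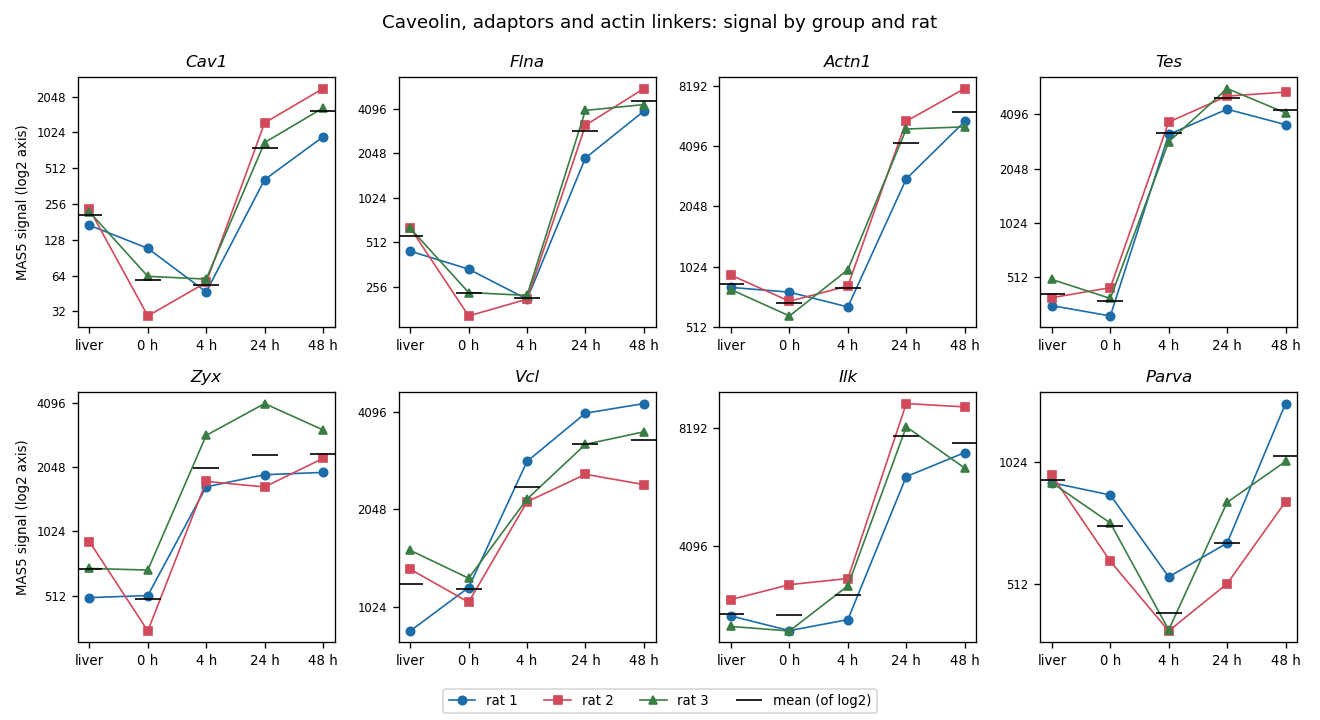
MAS5 signals of Cav1, 5 adaptors and 2 linkers by group on a log2 axis, with 1 line per rat and the mean of log2 values as a bar. Tes, Zyx and Vcl step up at 4 h, Cav1, Flna, Actn1 and Ilk at 24 h, and Parva dips at 4 h.

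The order in time differed between members. At 4 h vs. 0 h the largest rises were Tes at 3.09, Zyx at 2.04, Cd44 at 2.03 and Ezr at 1.30. With the offset Cd44 came after Itga6, Actn4 and Ezr, at 1.07 against 1.19, 1.18 and 1.16. The largest at 24 h vs. 4 h were Cav1 at 3.80, Flna at 3.74, Actn1 at 2.40 and Pdlim7 at 2.07. In a comparison added after seeing the data, 48 h vs. 4 h, 19 members rose and none fell in limma (20 of 35 had an unadjusted p under 0.05), beside 31.4% of all genes up and 17.1% down. Of those 19, 10 had a mean at 4 h below that at 0 h and a mean at 48 h above it. Among all genes, this held for 2188 of the 3338 that rose. Over all tested, that is 10 of 35 members beside 20.6% of all genes. Of these 10 members only Parva fell at 4 h vs. 0 h, and the change at 4 h was smaller than its SE in 6 of them. From 24 h to 48 h none of Itga1, Itga5, Itga6, Itgb1, Tln1, Vcl, Ilk and Ptk2 passed, with values from -0.38 (Itga1) to 0.22 (Itgb1).

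**Figure D5:**
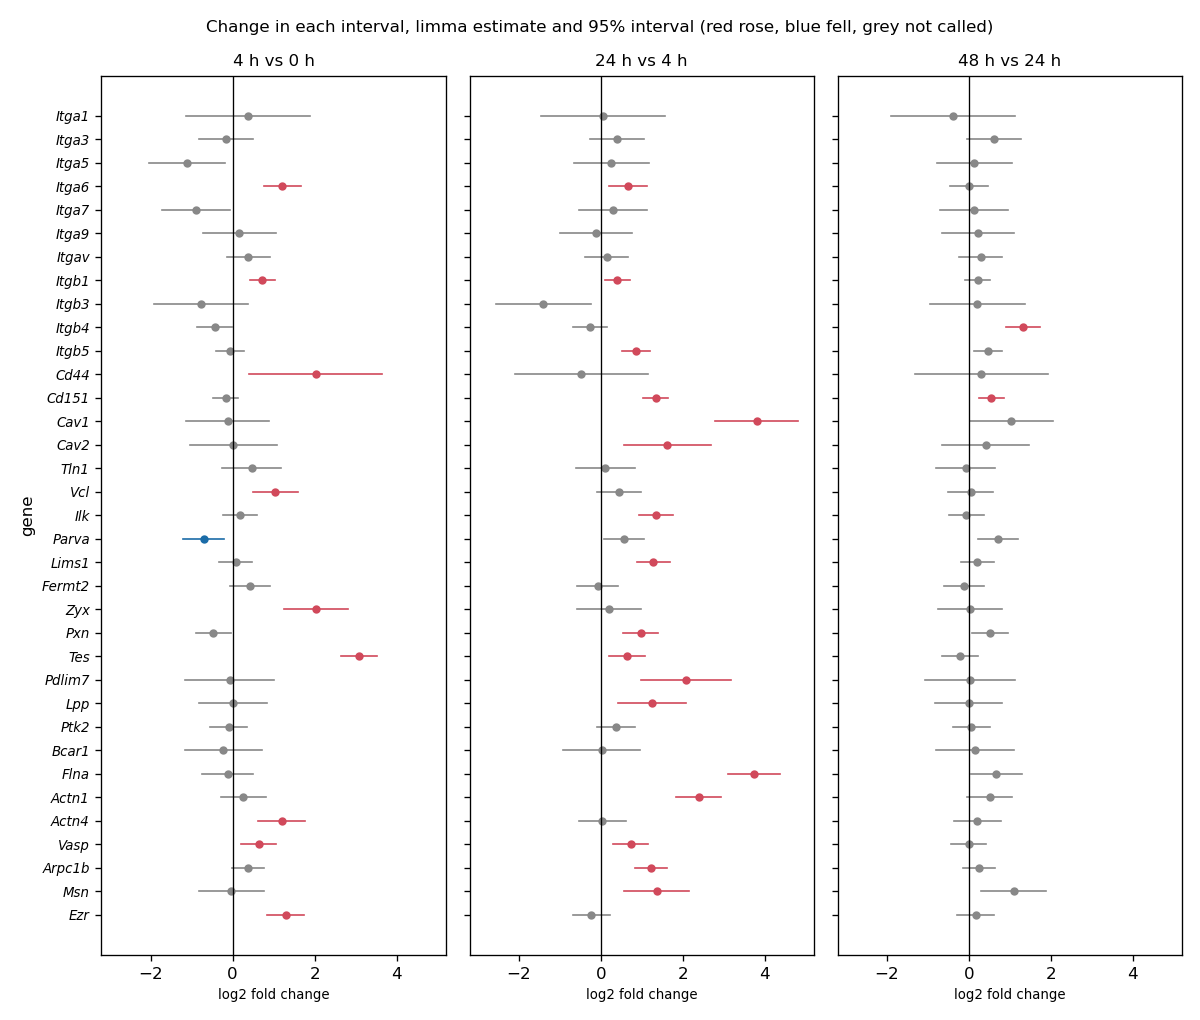
Log2 fold change of the 35 tested members in each interval of culture, with the limma estimate as a point and its 95% interval as a line; red rose, blue fell and grey did not pass. There are 10 coloured members at 4 h vs. 0 h, 17 at 24 h vs. 4 h and 2 at 48 h vs. 24 h.

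Genes that work beside the members were followed in 6 lists, whose counts at 48 h vs. 0 h stand beside 26.6% of all genes up and 17.5% down. Of 27 other focal adhesion adaptors, 15 rose and 3 fell at 48 h vs. 0 h, with a median of 0.83 (0.12 over all genes), and of 25 other actin linkers and Arp2/3 subunits 15 rose and 1 fell, with a median of 0.83. Pdlim2, a PDZ and LIM protein, had mean signals of 697 vs. 63.4, a log2 difference of 3.46 (SE 0.44, adjusted p = 3.27e-05) at 48 h and 0 h. Pdlim1 had 13353 vs. 1542, a log2 difference of 3.11 (SE 0.21, adjusted p = 1.29e-07), and Ajuba, a LIM protein of junctions and adhesions, 3429 vs. 415, a log2 difference of 3.04 (SE 0.34, adjusted p = 9.25e-06). Tpm2 and Tpm4, which coat actin filaments as tropomyosins, had 197 vs. 11.3, a log2 difference of 4.13 (SE 0.52, adjusted p = 2.83e-05) and 8346 vs. 992, a log2 difference of 3.07 (SE 0.19, adjusted p = 7.52e-08), and Tpm2 had 2.24 with the offset. Tpm2 was also the only gene of its list to change at 0 h vs. liver, where it had 11.3 vs. 127, a log2 difference of -3.49 (SE 0.52, adjusted p = 0.0164). Actn3, the alpha-actinin of fast muscle, had 458 vs. 33.7, a log2 difference of 3.77 (SE 0.52, adjusted p = 6.54e-05), or 2.85 with the offset.

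Of 28 adhesion signaling genes, 11 rose and 2 fell at 48 h vs. 0 h, with a median of 0.25. Ptk2b, a relative of focal adhesion kinase, had 302 vs. 34.6, a log2 difference of 3.13 (SE 0.95, adjusted p = 0.0164) at 48 h and 0 h, or 2.02 with the offset. Rhoc, a small GTPase, had 1023 vs. 234, a log2 difference of 2.127 (SE 0.19, adjusted p = 1.58e-06), and Nck2, an SH2 and SH3 adaptor, 397 vs. 106, a log2 difference of 1.91 (SE 0.30, adjusted p = 0.000207). At 0 h vs. liver the only change in this list was Rhob, a small GTPase with an unstable mRNA, at 4085 vs. 1245, a log2 difference of 1.71 (SE 0.24, adjusted p = 0.0115). Of 26 integrin ligands, 7 rose and 8 fell at 48 h vs. 0 h, which for the rises is near the share of all genes (26.6%). Ccn2, a matricellular ligand, had 19922 vs. 158, a log2 difference of 6.98 (SE 0.48, adjusted p = 1.52e-07). Lama5, a laminin chain, had 267 vs. 14.9, a log2 difference of 4.16 (SE 0.63, adjusted p = 0.000135), with 2.63 under the offset, and Fbln1, which encodes fibulin 1, had 162 vs. 18.1, a log2 difference of 3.16 (SE 0.57, adjusted p = 0.000587), with 1.81 under the offset.

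Of 4 other integrin chains tested, 3 fell and 1 rose at 48 h vs. 0 h. Itgal and Itgb2, which form a leukocyte integrin, had 80.1 vs. 355, a log2 difference of -2.15 (SE 0.38, adjusted p = 0.000527) and 165 vs. 471, a log2 difference of -1.51 (SE 0.21, adjusted p = 5.86e-05), and Itgae, another chain known from leukocytes, rose and had 659 vs. 240.1, a log2 difference of 1.46 (SE 0.20, adjusted p = 7.46e-05). The summed leukocyte markers went from between 634 and 979 at 0 h to between 221 and 290.0 at 48 h. Itgb2 is itself one of those markers and the brightest, so the sum is not independent of its fall. Apart from it, Ptprc had 50.8 vs. 187, a log2 difference of -1.88 (SE 0.23, adjusted p = 2.43e-05), and all 4 markers fell. Among 15 genes of caveolae and tetraspanins, 4 rose and 4 fell, which for the rises is again near the share of all genes. Cd9, a tetraspanin, had 741 vs. 20.9, a log2 difference of 5.15 (SE 0.61, adjusted p = 1.71e-05), or 3.72 under the offset. Plaur, the urokinase receptor, had 121 vs. 16.1, a log2 difference of 2.91 (SE 0.33, adjusted p = 1.23e-05), or 1.57 under the offset, while Cavin2, a caveola coat protein, fell and had 48.9 vs. 231, a log2 difference of -2.24 (SE 0.41, adjusted p = 0.000604).

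Promoter letters of 30 members were in the RefSeq table for build GRCr8, and 250 bases before each listed start were searched on both strands for an AP-1 site (TGACTCA or TGAGTCA), a TEAD site (GGAATG or CATTCC) and an SRF CArG box, which are motifs of transcription factors that act in spreading cells. The TEAD letters were in the promoters of 5 members (Itga3, Itgb1, Vcl, Zyx and Flna) and in 12.1% of all 33469 promoters listed, the AP-1 letters in 1 (Cav2) and 4.05%, and the CArG box in 1 (Itgb6) and 1.5%. A match describes letters, not a bound site, and the motifs were not searched outside these windows. These 7 runs are shown because they hold the matches. Each run is printed 5′ to 3′ on the strand of the gene, with the matching letters in capitals and 20 bases on each side.
Itga3 (chr10:80518998-80519043, minus strand): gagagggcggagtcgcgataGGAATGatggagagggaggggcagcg
Itgb1 (chr19:73602111-73602156, plus strand): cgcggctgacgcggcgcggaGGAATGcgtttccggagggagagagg
Vcl (chr15:3404942-3404987, minus strand): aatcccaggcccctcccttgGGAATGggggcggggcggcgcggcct
Zyx (chr4:72203775-72203820, plus strand): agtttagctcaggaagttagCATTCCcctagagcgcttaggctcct
Flna (chrX:157182392-157182437, minus strand): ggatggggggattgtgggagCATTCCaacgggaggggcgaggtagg
Cav2 (chr4:46582516-46582562, plus strand): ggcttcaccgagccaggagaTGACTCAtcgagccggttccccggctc
Itgb6 (chr3:65530399-65530448, minus strand): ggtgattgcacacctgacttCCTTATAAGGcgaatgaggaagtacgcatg

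The matches began between 74 bases (Flna) and 205 bases (Zyx) before the listed start. Flna and Zyx, both with the TEAD letters on the opposite strand of the gene, had their largest rise in different intervals (3.74 at 24 h vs. 4 h for Flna and 2.04 at 4 h vs. 0 h for Zyx). Tes, Cav1 and Actn1, which rose by 3.51, 4.72 and 3.16 at 48 h vs. 0 h, held none of the 3 motifs in the windows searched. Whether the motifs are related to any of these changes was not tested.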

How the data were processed

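The deposited values are linear signal intensities of Affymetrix RG230-2 arrays, 1 column per technical array, which the authors computed with the MAS5 algorithm and scaled to a trimmed mean of 500. The sources used here do not say whether Affymetrix software or the affy package wrote them. The labels tied columns to rats and groups (0 columns without a sample), and 43 arrays gave 15 samples after technical arrays were averaged as log2 signals. They correlated at r = 0.942 to 0.980. The authors left out 1 array at 4 h and 1 at 48 h. Probe sets with 1 listed gene (20826, without 57 controls) were kept when above the array median in 10% of arrays or more (5 arrays), which left 14553, and the one with the highest mean stood for its gene. Changes were fitted with limma 3.58.1 in R 4.3.3 over all 15 samples, without a term for the rat, with 3.28 prior degrees of freedom, and adjusted within each of 6 comparisons. With 3 rats a group, exact permutation could reach p = 0.1 at the lowest, so limma's test was used. The fit was tested on simulated data.

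Samples are paired, since each rat gave all 5 groups. Residuals of 1 rat correlated at a median r of 0.34 (30 pairs) and of different rats at -0.18 (60 pairs), and the fit was repeated with a rat term. The number of arrays limits the precision. Values by rat and full statistics are given for up to 4 rises and 4 falls per comparison and for 8 chains and linkers whatever they showed. From each list of other genes up to 3 changed genes at 48 h vs. 0 h and 2 at 0 h vs. liver were named. Members and lists were chosen with earlier results of these data known. Comparing 4 h with 48 h was added after the values were seen. Protein sequences were not analysed here.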

Additional observations from a re-analysis of the deposited data

Results flagged for a closer look

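Between 4 h and 48 h, 19 of 35 tested members rose and none fell by the test in limma (n = 3 rats per group). Of these 19, 10 also had opposite signs at those times, both measured against 0 h. In the same order of signs, 20.6% of all genes did so, or 2188 of the 3338 that rose at 48 h vs. 4 h. In 6 of the 10 the change at 4 h was smaller than its SE. Their log2 fold changes at 48 h vs. 4 h were 4.84 for Cav1, 4.41 for Flna, 2.46 for Msn, 2.10 for Pdlim7, 1.89 for Cd151, 1.50 for Pxn, 1.33 for Itgb5, 1.29 for Parva, 1.06 for Itgb4 and 1.02 for Itga3. All 10 passed with and without the rat as a block, and the highest adjusted p without it was 0.0140, for Itga3. Of these 10, only Parva had fallen at 4 h vs. 0 h by the test, at -0.71, while Msn stood at -0.030 and Itgb5 at -0.064.

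Itgb6 was outside the test because its signal was above the array median in only 2 of 43 arrays. Its mean signal at 48 h was 75.8, and all 3 rats at 48 h were above every liver and 0 h sample, of which the highest was 28.4. The difference was not tested.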

How the results depend on the processing

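No called change turned its direction under any alternative run, and over 111 values of named members the calls lost ranged from 0 (offset, stricter filter, rat as a block) to 24 of 78 (actin ratio as a covariate). The block on the rat, which pairs the samples, gave 12, 19, 3, 27 and 24 member calls where 10, 17, 2, 25 and 24 were made, in order from 4 h vs. 0 h to 48 h vs. liver, and lost none. Counts moved by over 1.5 times as follows, and the cause was not tested. At 0 h vs. liver 1 member fell with the offset and with 1 technical array. At 4 h vs. 0 h, 2 fell with quantile normalization, centred arrays, the offset, the stricter filter, 1 technical array, the block or the actin ratio, and 0 with the mean over probe sets, the probe set of highest SD or adjusted p under 0.01. At 24 h vs. 4 h, 1 fell with quantile normalization, centred arrays, no filter, the stricter filter, 1 technical array, the block or only the groups compared. At 48 h vs. 24 h, 1 rose with centred arrays, no filter, the probe set of highest SD, 1 technical array, only the groups compared, the actin ratio or adjusted p under 0.01. At 48 h vs. 0 h, 2 fell with the block. At 48 h vs. liver, 11 rose with the actin ratio and 1 fell at adjusted p under 0.01. Leaving out a rat or a sample gave 0 to 2 falls at 0 h vs. liver, 0 to 3 at 4 h vs. 0 h, 0 to 1 at 24 h vs. 4 h, 0 to 2 rises at 48 h vs. 24 h (0 without rat 1 or rat 3), 0 to 2 falls at 48 h vs. 0 h (0 without rat 3) and 1 to 3 at 48 h vs. liver (1 without the liver of rat 2). Values that changed sign belonged to members not called in either fit. With 1 technical array per sample the log2 fold change was 0.072 for Vcl at 0 h vs liver, -0.0070 for Itga6 at 48 h vs 24 h, -0.011 for Vcl at 48 h vs 24 h and 0.022 for Tln1 at 48 h vs liver. With the actin ratio as a covariate the log2 fold change was -0.0023 for Tln1 at 24 h vs 4 h and -0.0067 for Vcl at 48 h vs 24 h. With centred arrays the log2 fold change was 0.13 for Itgb1 at 0 h vs liver, 0.076 for Vcl at 0 h vs liver, 0.12 for Ilk at 0 h vs liver, 0.11 for Ptk2 at 0 h vs liver, -0.15 for Itga1 at 24 h vs 4 h, -0.092 for Tln1 at 24 h vs 4 h, -0.034 for Itga6 at 48 h vs 24 h and -0.17 for Itga1 at 48 h vs 0 h. With the mean over probe sets the log2 fold change was -0.17 for Itga6 at 0 h vs liver, -0.13 for Itga6 at 48 h vs 24 h and -0.10 for Vcl at 48 h vs 24 h. With the probe set of highest SD the log2 fold change was -0.061 for Itga6 at 48 h vs 24 h. With quantile normalization the log2 fold change was -0.084 for Itga1 at 24 h vs 4 h, 0.017 for Ilk at 48 h vs 24 h and -0.11 for Itga1 at 48 h vs 0 h. Leaving out a rat or a sample also turned the sign of uncalled values, which then ranged from -0.36 to 0.88 for Itga1 at 0 h vs liver, -0.090 to 0.15 for Itga6 at 0 h vs liver, -0.062 to 0.064 for Itgb1 at 0 h vs liver, -0.31 to 0.11 for Vcl at 0 h vs liver, -0.14 to 0.054 for Ilk at 0 h vs liver, -0.16 to 0.23 for Ptk2 at 0 h vs liver, -0.11 to 0.99 for Itga1 at 4 h vs 0 h, -0.37 to 0.083 for Ptk2 at 4 h vs 0 h, -0.55 to 0.51 for Itga1 at 24 h vs 4 h, -0.056 to 0.67 for Itga5 at 24 h vs 4 h, -0.30 to 0.33 for Tln1 at 24 h vs 4 h, -1.11 to 0.22 for Itga1 at 48 h vs 24 h, -0.18 to 0.45 for Itga5 at 48 h vs 24 h, -0.16 to 0.23 for Itga6 at 48 h vs 24 h, -0.29 to 0.33 for Tln1 at 48 h vs 24 h, -0.15 to 0.27 for Vcl at 48 h vs 24 h, -0.23 to 0.088 for Ilk at 48 h vs 24 h, -0.071 to 0.22 for Ptk2 at 48 h vs 24 h, -0.68 to 0.66 for Itga1 at 48 h vs 0 h, -0.43 to 1.12 for Itga1 at 48 h vs liver and -0.32 to 0.085 for Tln1 at 48 h vs liver. Technical arrays differed by a pooled SD of 0.41 (log2) over members and rats by 0.49, which limits what 3 rats a group can resolve.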

Other observations

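Of the members, 16 had 24 further probe sets that passed the filter. None was called in the direction opposite to the probe set used, in any of the 6 comparisons. At 48 h vs. 0 h, 20 of these 24 belonged to genes that were called, and 19 of the 20 had the same sign, with 17 called too. The exception was a probe set of Itga6 with a log2 fold change of -0.49 (adjusted p = 0.378), where the one used gave 1.89. A second probe set of Pdlim7 gave 0.10 (adjusted p = 0.914) against 2.02, and that of Lims1 gave 0.71 (adjusted p = 0.159) against 1.56. Second probe sets of Parva and Fermt2 gave 1.67 (adjusted p = 0.0219) and 0.95 (adjusted p = 0.0204), while the ones used did not pass. The same held for Cd44, at 1.61 (adjusted p = 0.0176). At 24 h vs. 4 h, 16 of the 24 belonged to called genes, and all 16 had the same sign, but only 6 were called too. No other probe set of Itga6, Itgb5, Lims1, Tes or Pdlim7 was called there. At 4 h vs. 0 h, 6 of 10 were called too. At 4 h vs. 0 h the 2 other probe sets of Itgav rose by 1.32 (adjusted p = 0.000639) and 1.37 (adjusted p = 0.00331), where the one used gave 0.38 and did not pass. A second probe set of Itgb5 fell there, at -0.69 (adjusted p = 0.0184), where the one used gave -0.064, and rose at 48 h vs. 24 h, at 0.91 (adjusted p = 0.0284). Against liver at 48 h, those of Fermt2 and Parva also rose, at 1.23 (adjusted p = 0.00444) and 1.71 (adjusted p = 0.0180). The adjusted p-values are from limma with n = 3 rats per group.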
